A study of Mus musculus with 6 samples.

Results

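Oxidative phosphorylation was examined at the transcript level in mouse liver through 88 nuclear genes, those whose symbol starts with Nduf, Uqcr, Cox4, Cox5, Cox6, Cox7, Cox8 or Atp5 and whose array probe carries a RefSeq accession. They are 88 of 22911 genes that could be named on the array, measured by 108 of its 56605 probes, and each gene is given by its brightest probe. They comprise 36 complex I genes, 8 complex I assembly factors (Ndufaf), 8 complex III genes, 19 complex IV genes and 17 complex V genes. Ndufa4 and Ndufa4l2 bear complex I names but are counted with complex IV, where the Ndufa4 protein is now placed.

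The livers came from 6 male mice, given as 12 weeks old when put on the diets, in a study that asked how soy in the diet alters the liver transcriptome. Control mice (n = 3) ate granulated regular chow, and soy mice (n = 3) ate granulated chow with 25% soy bean, each for 4 weeks. No other treatment or allele is given, and the strain is not given in the sources used here. A piece of the right hepatic lobe of each mouse was hybridized to 1 array of 1 colour (Agilent G3 Mouse Gene Expression v.2). Precision is limited by having 3 arrays in each group. Between 36366 and 38163 spots of the control arrays, and between 31308 and 32498 of the soy arrays, stood well above background, fewer on each soy array than on each control array, and the part of this in the results was not tested. Slide 1 held control 1, control 2 and soy 1, slide 2 held soy 2, and slide 3 held control 3 and soy 3. The hepatocyte markers Alb, Apoa1, Ttr, Cps1, Cyp2e1 and Tat were well above background on all 6 arrays, and none of them passed the threshold for a change. Of these 6, the mean was lower in the soy group for 5, and the median of their log2 changes (soy minus control) was -0.16. Cps1, the first enzyme of the urea cycle, had a change of -0.47 (SE 0.12, adjusted p = 0.178) without overlap of the groups, and Tat, which breaks down tyrosine, had a change of -0.76 (SE 0.26, adjusted p = 0.324) with overlap. The part of these lower levels in the results was not tested.

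In the inner mitochondrial membrane, complexes I, III and IV pass electrons from NADH to oxygen and pump protons, and complex V, the ATP synthase, uses the returning protons to make ATP. Complex II feeds in electrons from succinate without pumping, ubiquinone (coenzyme Q) carries electrons to complex III, and cytochrome c carries them on to complex IV. Most subunits are encoded in the nucleus, some of the core ones in mitochondrial DNA, and several complex IV subunits exist as isoforms of different tissues. Hepatocytes are rich in mitochondria and rely on this pathway for gluconeogenesis and urea synthesis.

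None of the 88 genes passed the threshold for a difference between soy and control livers, which was an adjusted p under 0.05 in limma (Benjamini-Hochberg over all 56605 probes) with a fold change above 1.5 or under 0.66. Over all probes 0.208% passed as higher and 0.141% as lower in soy. At an unadjusted p under 0.05 the members counted were 3 of 88, namely Cox7a1, Ndufaf6 and Cox7b2, beside 11.5% of all probes and 20.1% of the 13513 named genes that were well above background on all 6 arrays. Of the 88 genes 85 were well above background on all 6 arrays, the others being Cox7b2, Cox8b and Cox8c. The smallest adjusted p of a member was 0.212, for Cox7a1. With the scanner's processed signal in place of the median signal Cox7b2 and Cox8b passed as lower and Cox8c as higher. Of all probes 23.2% passed with that signal. Bulk tissue was measured, in which fewer cells of a type and less RNA per cell cannot be told apart.

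The median log2 change (soy minus control) was 0.040 over the 88 genes, with 56 higher and 32 lower (-0.0013 without the control 3 array), and -0.010 over all probes. The middle 50% of the members spanned 0.10 on the log2 scale, against 0.24 for all probes and 0.31 for named genes well above background on all 6 arrays. Neither set was matched to the members in signal level, and the part of signal level in this was not tested. For 84 of 88 members (95.5%) the 95% interval of the change lay wholly between the 0.66-fold and 1.5-fold thresholds, as it did for 68.7% of those named genes. The median width of the intervals to either side was 0.25 for the members. The 4 members whose interval reached past a threshold were Cox7a1, Ndufaf5, Ndufaf6 and Cox7b2. Among the 85 members well above background on all 6 arrays, a change of more than 1.2-fold in either direction was measured for 2, Cox7a1 and Ndufaf6 (2.35%), against 28.9% of those named genes and 0 of 78 mitochondrial ribosomal protein genes.

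**Figure D1:**
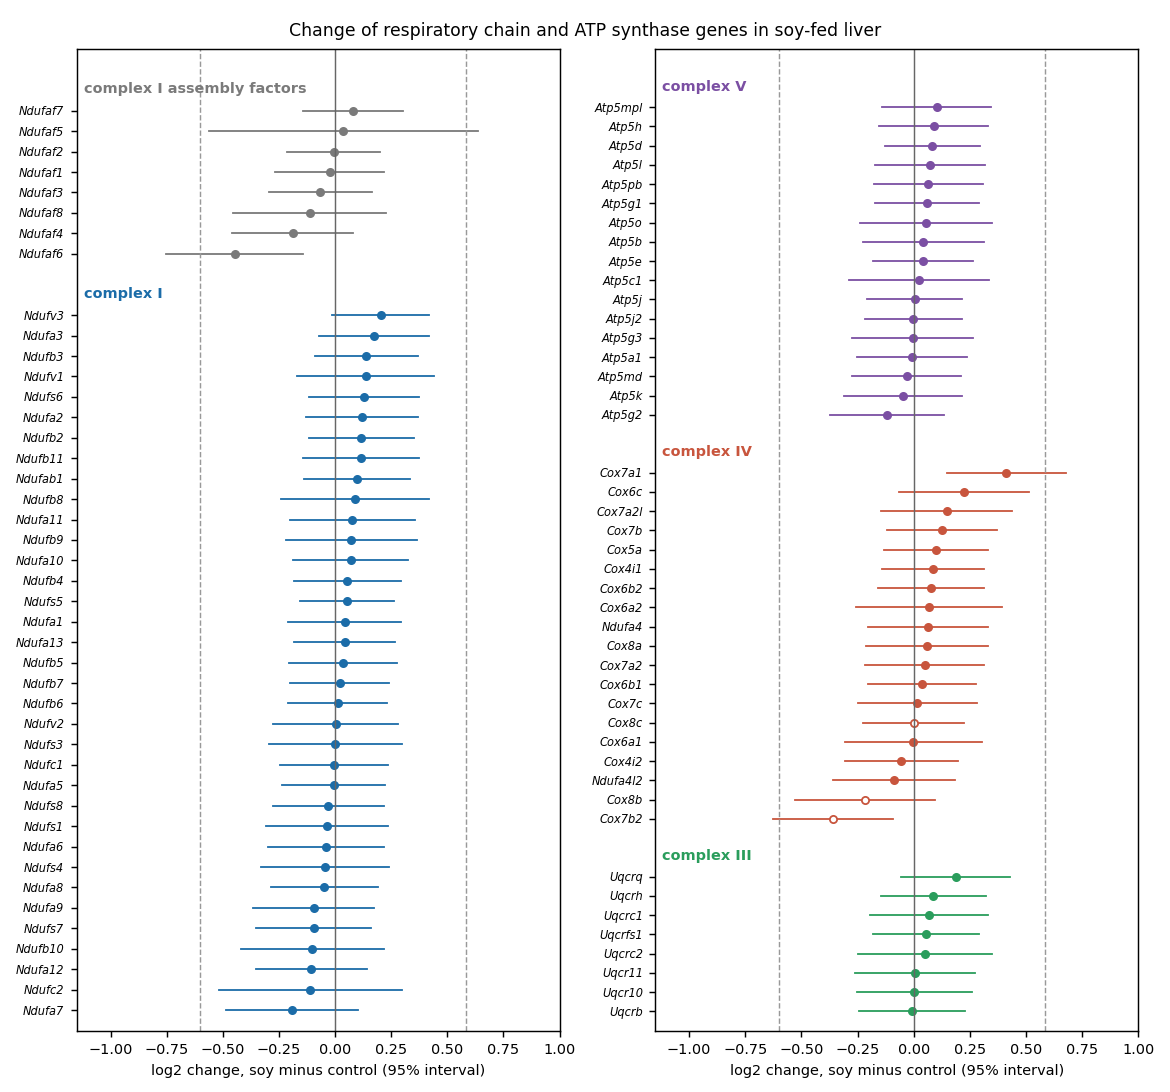
Log2 change (soy minus control) of 87 of the genes, by complex; points are estimates from 3 against 3 arrays, bars are 95% intervals from limma, open points are genes not well above background on every array, and dashed lines mark 1.5-fold and 0.66-fold. The interval of 83 of them lies between the dashed lines.

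**Figure D2:**
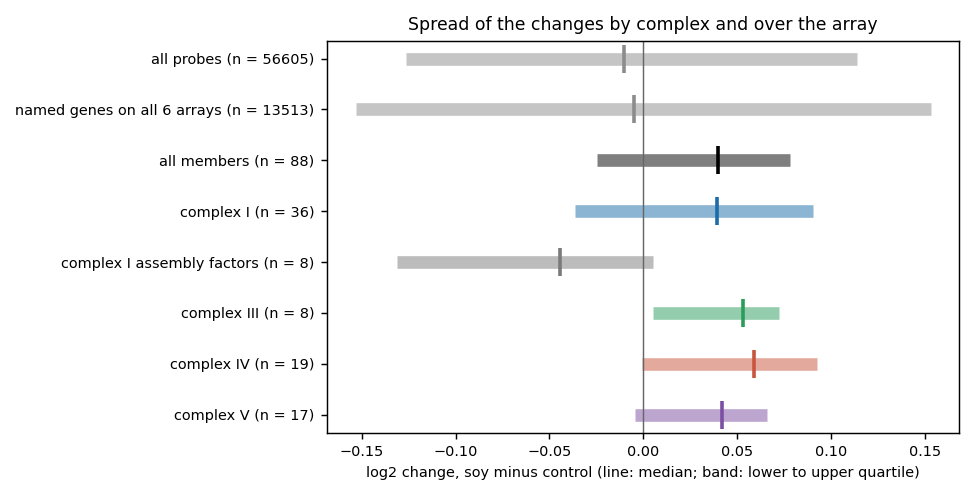
Median log2 change (line) and lower to upper quartile (band) for the members, for each complex, for all 56605 probes and for 13513 named genes well above background on all 6 arrays. The bands of the members are narrower than those of the array, and their medians lie between -0.044 and 0.059.

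Groups without overlap, in which all 3 soy values lay on 1 side of all 3 control values, were counted as a description, since an exact two-sided permutation test of 3 against 3 arrays cannot go below p = 0.1. In 7 members every soy value was higher (Cox7a1, Cox6c, Ndufv3, Ndufs5, Ndufs6, Uqcrq and Atp5d), beside 7.75% of all probes and 13.3% of the named genes. In 2 members, Ndufaf6 and Cox7b2, every soy value was lower, beside 10.3% of all probes and 12.3% of the named genes. Both shares of the members, 7 and 2 of 88, were near or under those backgrounds.

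Complex I takes electrons from NADH through a flavin and a chain of iron-sulfur clusters, in an arm built around nuclear core subunits. Of these, Ndufv1 holds the flavin and the NADH site and had a change of 0.14 (SE 0.13, adjusted p = 0.746). Its log2 levels were 15.97, 15.71 and 15.52 for control and 15.88, 15.92 and 15.81 for soy, so the soy values lay inside the control range. Ndufs1, the largest iron-sulfur subunit, gave 14.80, 14.73 and 14.54 in control and 14.78, 14.53 and 14.65 in soy livers, for a change of -0.035 (SE 0.12, adjusted p = 0.934). The core subunits Ndufs7, next to the ubiquinone site, Ndufs3, Ndufs8 and Ndufv2 had changes of -0.096, 0.0020, -0.029 and 0.0035, each with an SE of 0.11 to 0.13.

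Over all 36 complex I genes the median change was 0.039, with 23 higher and 13 lower (-0.012 without control 3 or with a shift to the 75th percentile in place of quantile normalization), and all 36 intervals lay between the thresholds. The largest changes were those of Ndufv3, Ndufa7 and Ndufa3. Ndufv3, an accessory subunit beside Ndufv1, was at 15.54, 15.68 and 15.57 in control and at 15.79, 15.78 and 15.84 in soy livers, for a change of 0.20 (SE 0.094, adjusted p = 0.469) without overlap. The accessory subunit Ndufa7 was at 15.86, 15.42 and 15.64 in control and at 15.42, 15.44 and 15.48 in soy livers, for a change of -0.19 (SE 0.13, adjusted p = 0.620). The groups overlapped, and the 3 control values were farther apart than the 3 soy values. Ndufa3, also an accessory subunit, had a change of 0.17 (SE 0.11, adjusted p = 0.589), and the soy 3 array lay among the control values. Ndufs5 and Ndufs6 had no overlap at changes of 0.053 and 0.13.

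Complex I is put together from modules by assembly factors that are not part of the finished enzyme. Of the 8 Ndufaf genes 2 were higher and 6 lower in soy, with a median of -0.044, at 0.0077 within slide 1 and -0.11 within slide 3. Ndufaf6 was the member with the most negative change. Its log2 levels were 11.99, 11.94 and 11.65 for control and 11.57, 11.39 and 11.28 for soy. Each soy value was below each control value, and control 3 and soy 1 differed by 0.080, less than control 3 differed from either of the other controls. The change of Ndufaf6 (NM_001085493) was -0.45 (SE 0.13, 95% interval -0.75 to -0.14, adjusted p = 0.251, and 0.0779 to 0.516 over the alternatives). It was -0.40 within slide 1 and -0.36 within slide 3. Ndufaf4 had a change of -0.19 (SE 0.12, adjusted p = 0.592) and Ndufaf8 one of -0.11 (SE 0.15, adjusted p = 0.817), with overlap in both. Ndufaf5 had the widest spread of all members, with control values of 10.89, 10.18 and 11.13 and soy values of 10.96, 10.92 and 10.42. Its change was 0.037 (SE 0.26), 0.43 within slide 1 and -0.71 within slide 3, and its 95% interval, -0.56 to 0.64, reached past the upper threshold.

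**Figure D3:**
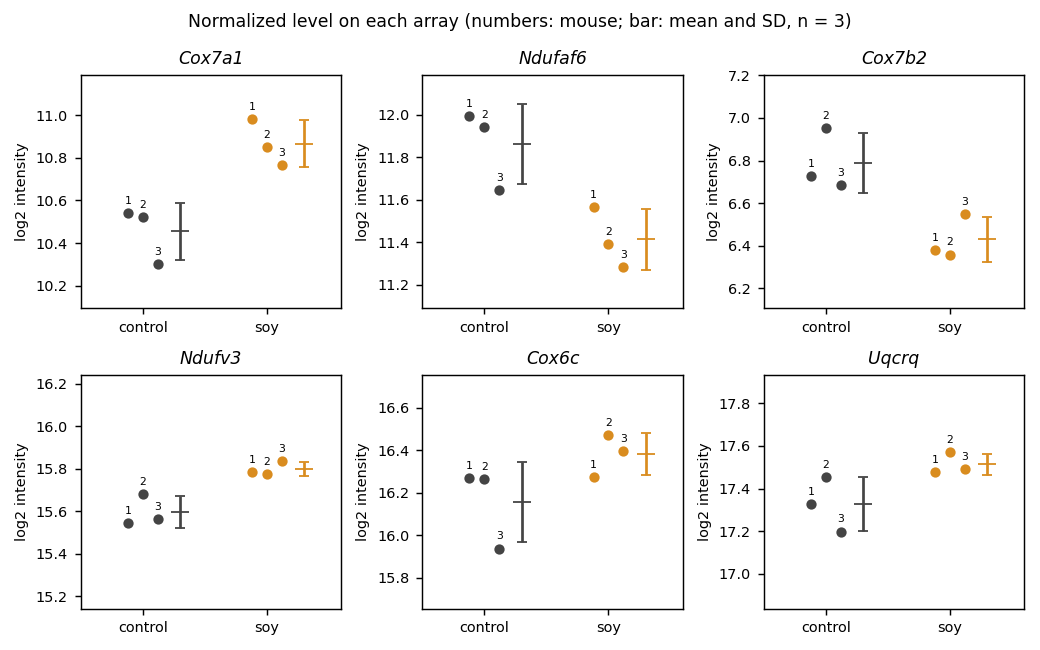
Normalized log2 intensity on each array for Cox7a1, Ndufaf6, Cox7b2, Ndufv3, Cox6c and Uqcrq; points are single mice (numbered), bars are the mean and SD of 3 arrays, and every panel spans the same range. The soy points of each gene lie on 1 side of its control points, by a gap that is small beside the spread for Cox6c and Uqcrq.

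Complex III passes electrons from ubiquinol to cytochrome c. Its 8 genes had a median change of 0.053, with 7 higher and 1 lower (-0.0083 without soy 1). The Rieske iron-sulfur protein Uqcrfs1 was at 15.36, 15.32 and 15.18 in control and at 15.41, 15.36 and 15.26 in soy livers, for a change of 0.055 (SE 0.10, adjusted p = 0.877), and the groups overlapped. The core protein Uqcrc1 had a change of 0.067 (SE 0.11), and Uqcrh, the hinge protein beside cytochrome c1, one of 0.087 (SE 0.10). The largest change of complex III was that of Uqcrq, a small structural subunit, at 17.33, 17.45 and 17.20 in control and 17.48, 17.57 and 17.49 in soy livers. Its soy values lay above its control values by a margin of 0.022 at the nearest, and the change was 0.19 (SE 0.10, adjusted p = 0.556).

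Complex IV, cytochrome c oxidase, reduces oxygen. Its 19 genes had a median change of 0.059, with 13 higher and 6 lower. They include the forms that liver uses, such as Cox4i1, Cox5a, Cox6a1, Cox6b1, Cox7a2 and Cox8a, which had changes of 0.086, 0.099, -0.0011, 0.037, 0.050 and 0.059, with adjusted p of 0.754 or more. Cox4i1, which takes part in the regulation of the enzyme by ATP, was at 16.96, 16.80 and 16.80 in control and at 17.01, 16.91 and 16.91 in soy livers, and the groups overlapped. Cox6c was at 16.27, 16.26 and 15.94 in control and at 16.27, 16.47 and 16.39 in soy livers. Its lowest soy value exceeded its highest control value by 0.0066. The change of Cox6c was 0.22 (SE 0.12, adjusted p = 0.556), with 0.0084 within slide 1 and 0.46 within slide 3, where control 3 was low. Cox7a2l, which takes part in joining complexes III and IV into supercomplexes, had a change of 0.15 (SE 0.13, adjusted p = 0.708), at 0.0033 within slide 1 and 0.32 within slide 3. Ndufa4 had a change of 0.063 (SE 0.12).

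Of the complex IV genes, 8 code for isoforms known mainly from other tissues or conditions. Cox7a1, the form of heart, skeletal muscle and brown fat, was the member with the largest positive change. Its log2 levels were 10.54, 10.52 and 10.30 for control and 10.98, 10.85 and 10.77 for soy. Every soy value was above every control value, by 0.23 at the nearest. The change of Cox7a1 (NM_009944) was 0.41 (SE 0.11, 95% interval 0.15 to 0.68), a fold change of 1.33, with an adjusted p of 0.212 (0.0646 to 0.387 over the alternatives). It was 0.45 within slide 1 and 0.47 within slide 3. The liver form Cox7a2 was at 16.23, 16.50 and 16.43 in control and at 16.47, 16.32 and 16.53 in soy livers, and the groups overlapped.

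Marker genes of skeletal and heart muscle and of brown and white adipocytes did not pass the threshold. Of 8 skeletal and heart muscle markers, Myh6 and Tnnt3 were well above background on all 6 arrays and Ckm, Actn3, Myh4 and Mb on none. The summed linear signal of the 8 was 1218, 1212 and 1195 in control and 1195, 1174 and 1063 in soy livers, with the highest signal from the Tnnt3 probe. Of 6 adipocyte markers, Lep was well above background on all 6 arrays and Adipoq, Plin1 and Ucp1 on none. The summed signal of the 6 was 1815, 2127 and 2362 in control and 1994, 2001 and 1726 in soy livers, with the highest signal from the Lep probe. Both sums include probes at background and do not measure the amount of either tissue, and the part of muscle or fat RNA in the level of Cox7a1 was not tested.

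Of the other 7 isoforms, Cox6a2 of muscle had a change of 0.069 (SE 0.14), Cox6b2 of testis one of 0.077 (SE 0.10), Cox4i2 of lung one of -0.055 (SE 0.11) and Ndufa4l2, known from hypoxia, one of -0.087 (SE 0.12). Cox8b of muscle and Cox8c of testis were well above background on none of the 6 arrays. Cox7b2, a testis form, was at 6.73, 6.95 and 6.69 in control livers, where it was well above background on 2 of 3 arrays, and at 6.38, 6.36 and 6.55 in soy livers, where it was so on none. It did not pass the threshold (adjusted p = 0.287, 95% interval of the log2 change -0.63 to -0.094). The measured control mean was at least 1.14-fold the soy mean when each soy array was set at its lowest signal well above background or the probe's own value, whichever is higher, a bound that leaves out the error of the means.

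For the pair of isoforms Cox7a1 and Cox7a2, the 250 bases before the transcription start are shown, from RefSeq on GRCm38.p6, each 5′ to 3′ on the gene's own strand. Capitals would mark the motifs searched on both strands, which were CCGGAAG (ETS factors, such as the complex Gabpa belongs to), GCATGCG (NRF1), AAGGTCA (estrogen-related receptors) and ATGGCGG (YY1). Neither sequence holds any of these letters in a row, which says nothing about the factors themselves. Cox7a1 lies at chr7:30183921-30184170 on the plus strand and Cox7a2 at chr9:79759854-79760103 on the minus strand.
Cox7a1: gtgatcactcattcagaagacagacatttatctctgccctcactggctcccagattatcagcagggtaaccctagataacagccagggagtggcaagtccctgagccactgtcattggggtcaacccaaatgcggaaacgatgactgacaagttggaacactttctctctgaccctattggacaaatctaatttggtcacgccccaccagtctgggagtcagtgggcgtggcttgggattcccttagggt
Cox7a2: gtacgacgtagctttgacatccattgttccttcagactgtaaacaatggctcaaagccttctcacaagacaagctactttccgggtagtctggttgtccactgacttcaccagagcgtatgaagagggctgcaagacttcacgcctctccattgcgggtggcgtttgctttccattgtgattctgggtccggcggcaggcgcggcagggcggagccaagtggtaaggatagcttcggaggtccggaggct

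Complex V makes ATP in its F1 head, driven by a ring of c subunits in the membrane. Its 17 genes had a median change of 0.042, with 11 higher and 6 lower (-0.030 with the 75th-percentile shift and -3.0e-05 without control 3), and the widest were Atp5g2 at -0.12, Atp5mpl, a small membrane subunit, at 0.10 and Atp5h, of the peripheral stalk, at 0.089. The catalytic subunit Atp5b was at 17.45, 17.35 and 17.31 in control and at 17.29, 17.35 and 17.60 in soy livers, for a change of 0.043 (SE 0.12, adjusted p = 0.920), and its 3 probes gave changes from -0.075 to 0.054. Atp5a1, of the same head, had a change of -0.0067 (SE 0.11) and Atp5c1, the rotating central stalk, one of 0.023 (SE 0.13). The ring is encoded by 3 genes for the same mature protein, and the change of Atp5g1 was 0.058 (SE 0.10), that of Atp5g2 -0.12 (SE 0.11) and that of Atp5g3 -0.0047 (SE 0.12). None of these had separate groups. Atp5d, of the central stalk, had no overlap at a change of 0.082 (SE 0.091), and its lowest soy value lay above its highest control value by 0.00018.

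A promoter window of 300 bases, 250 before and 50 after the start, was found for 72 of the 88 genes (77 windows, since some genes have several). At least 1 of the 4 motifs stood in 50.6% of the members' windows, and in 19.0% of the 32851 windows of all genes. The ETS letters were in 22.1% of the members' windows and 8.86% of all, and those of NRF1 in 15.6% and 3.58%. For the estrogen-related receptors the shares were 9.09% and 4.72%, and for YY1 16.9% and 4.05%. These shares describe letters, and no binding was measured. The 250 bases before the start of Atp5l and Atp5k, small membrane subunits, are shown because their windows held 5 and 4 matches, of which those after the start are not printed, with the motifs in capitals. In both, GCATGCG was met on both strands at 1 place, which reads CGCATGCG in full, at bases -241 to -234 from the start in Atp5l and -49 to -42 in Atp5k. Atp5l also holds the ETS letters on the other strand at -212 to -206 and those of the estrogen-related receptors on the other strand at -13 to -7. Atp5l lies at chr9:44920743-44920992 and Atp5k at chr5:108434400-108434649, both on the minus strand.
Atp5l: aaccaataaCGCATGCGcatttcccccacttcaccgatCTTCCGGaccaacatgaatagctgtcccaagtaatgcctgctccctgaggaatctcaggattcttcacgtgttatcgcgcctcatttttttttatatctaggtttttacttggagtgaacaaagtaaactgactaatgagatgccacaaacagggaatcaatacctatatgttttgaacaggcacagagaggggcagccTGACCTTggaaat
Atp5k: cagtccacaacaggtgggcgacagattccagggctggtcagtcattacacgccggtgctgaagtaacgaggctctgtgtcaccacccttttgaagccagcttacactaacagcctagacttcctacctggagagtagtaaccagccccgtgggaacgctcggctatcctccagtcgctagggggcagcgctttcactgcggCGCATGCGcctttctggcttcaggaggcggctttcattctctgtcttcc
The array changes of these genes were 0.072 (SE 0.11) for Atp5l, from 16.88, 17.14 and 17.02 in control to 17.14, 17.09 and 17.03 in soy livers, and -0.049 (SE 0.11) for Atp5k. The groups overlapped in both.

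The positive median of the members was examined by array. The median deviation from each gene's control mean was 0.061, 0.027 and -0.078 for the control arrays and 0.080, 0.029 and -0.015 for the soy arrays, so the arrays of the 2 groups overlapped. Control 3 was the lowest of the 6 arrays for 38 of 88 members (43.2%), and for 14.0% of all probes and 17.8% of the named genes well above background on all 6 arrays. Without control 3 the median change of the members was -0.0013, with 43 of 88 higher. The median was 0.035 within slide 1 and 0.055 within slide 3. A shift of each array to its 75th percentile in place of quantile normalization gave -0.0092 for the members, with 41 of 88 higher, while it moved the median of all probes to 0.13. With the processed signal the median was 0.019 for the members and 0.13 for all probes. With cyclic loess these were 0.0094 and 0.0043. With slide as a block the members' median was 0.055, with 64 of 88 higher, and leaving out any 1 of the other 5 arrays gave 0.014 to 0.053. The direction of the members' median thus turned without control 3 and with the 75th-percentile shift, and in no other of these alternatives. The assembly factors did not have control 3 as their lowest array in any of 8 genes. Markers of Kupffer cells, the resident macrophages of the liver, were ordered differently. The 5 genes (Adgre1, Cd5l, Clec4f, Marco and Timd4) were well above background on all 6 arrays and none passed the threshold, and their median deviation was -0.50, 0.089 and 0.42 for the control arrays and -0.077, 0.045 and 0.52 for the soy arrays. Their summed linear signal was 22490, 36232 and 43576 in control and 31023, 37559 and 47918 in soy livers, with the highest signal from the Cd5l probe. They were thus highest on control 3 and soy 3, the 2 arrays of slide 3, where the median of the members was lowest, and their part in that pattern was not tested.

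**Figure D4:**
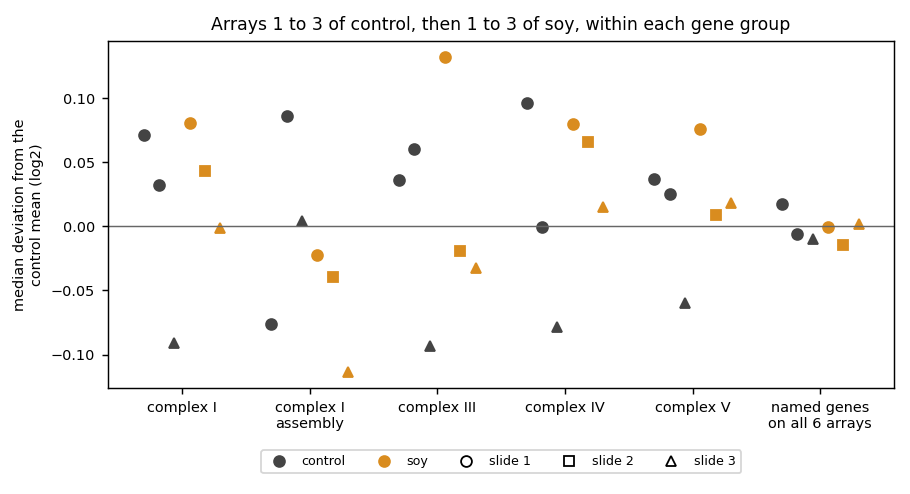
Median deviation of each array from the control mean of each gene (log2), for the genes of each complex and for 13513 named genes well above background on all 6 arrays; colours are the diets and shapes the slides. Control 3 is the lowest array for complexes I, III, IV and V, and the 6 arrays are close together for the named genes.

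Of 13 transcriptional regulators of mitochondrial genes none passed the threshold. Pprc1, a coactivator of the PGC-1 family, was at 10.68, 10.30 and 10.89 in control and at 9.67, 9.59 and 10.04 in soy livers. Its change was -0.86 (SE 0.18, adjusted p = 0.122) without overlap. Pprc1 passed with the processed signal (-0.97), as did 23.2% of all probes. Nrip1, a corepressor of nuclear receptors, was at 9.49, 9.55 and 9.63 in control and at 9.99, 9.91 and 10.19 in soy livers, for a change of 0.47 (SE 0.11, adjusted p = 0.152), with every soy value above the control values. Ppargc1b, of the PGC-1 family, had a change of -0.59 (SE 0.39, adjusted p = 0.622), with the groups overlapping through control 3. It was -1.09 without control 3 and -0.23 without control 1, and its adjusted p was 0.0967 to 0.859 over the alternatives. Ppargc1a, chosen after its values were seen because control 3 stood apart, was at 10.02, 10.22 and 8.53 in control and at 9.70, 9.61 and 9.52 in soy livers, for a change of 0.020 (SE 0.40). Both Ppargc1 genes were lowest on control 3, the array that was lowest for many members, while Pprc1 was highest there. Control 3 was the lowest array for 3 of 13 regulators (23.1%), beside 17.8% of the named genes well above background on all 6 arrays. The part of the regulators in that pattern was not tested. Esrra, Nrf1, Gabpa and Tfam had changes of 0.12, 0.15, -0.039 and 0.16, with adjusted p of 0.652 or more.

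The rest of the respiratory chain and its assembly was described from lists of genes outside the name rule, and none of their genes passed. Complex II (8 genes) had a median of 0.022, and Sdhaf1, which helps insert iron-sulfur clusters into Sdhb, was at 11.41, 11.89 and 11.62 in control and at 12.15, 12.20 and 12.12 in soy livers. Its change was 0.52 (SE 0.13, adjusted p = 0.187, and 0.0392 to 0.402 over the alternatives) without overlap, and it passed both parts of the threshold in none of them. The change of Sdhb itself was -0.15 (SE 0.15), at -0.30 without control 3 and -0.042 without control 2. Coenzyme Q genes (11) had a median of -0.015 and held the largest change of the lists, that of Coq10b, a coenzyme Q binding protein. Coq10b (NM_001039710) was at 12.75, 13.09 and 12.72 in control and at 11.88, 10.94 and 10.99 in soy livers. Its groups were separate, and the change was -1.58 (SE 0.25, adjusted p = 0.0593, and 0.00747 to 0.184 over the alternatives). Coq10b passed with the processed signal, with the 75th-percentile shift, among probes well above background, and without soy 1 (-1.89). The processed signal let 23.2% of all probes pass. Coq3, of coenzyme Q synthesis proper, had a change of -0.24 (SE 0.12, adjusted p = 0.512).

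Complex IV assembly genes (21) had a median of 0.046, and the widest were Cox19 and Coa7. Cox19, which takes part in copper delivery, was at 12.79, 12.32 and 12.73 in control and at 13.00, 12.99 and 13.10 in soy livers, for a change of 0.42 (SE 0.14, adjusted p = 0.311) without overlap. Coa7 had a change of 0.34 (SE 0.20, adjusted p = 0.574). Complex I assembly genes of other names (6) had a median of 0.13, with Ecsit at 0.16 (SE 0.087, adjusted p = 0.531) and Acad9 at 0.16 (SE 0.17). Cytochrome c and other complex III genes (8) had a median of -0.026, with Bcs1l, which inserts the Rieske protein, at -0.13 (SE 0.089, adjusted p = 0.622) and Uqcc1 at -0.13 (SE 0.11). Other complex V genes (4) had a median of -0.0025, with the assembly factor Atpaf1 at -0.21 (SE 0.13) and the inhibitor Atpif1 at 0.10 (SE 0.11). Carriers, channels and uncoupling proteins (9) had a median of 0.045, and the widest were Ucp3 at 0.27 (SE 0.25) and Ucp2 at 0.19 (SE 0.24). With 1 array left out Ucp3 ranged from 0.0083 to 0.51 and Ucp2 from 0.0028 to 0.45, each lowest without control 1 and highest without control 3. The 13 proteins encoded in mitochondrial DNA were not analysed here, since no probe was matched to them.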

How the data were processed

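Liver RNA of 3 control and 3 soy mice, each a separate animal, was measured on 1 array each. The authors scanned the arrays and deposited, per the file headers, the Feature Extraction (version 11.5.1.1) output with a median intensity per spot and one for the background around it, neither scaled between arrays, a background-subtracted processed signal, and quality marks. A deposited table of log2 values covers the same spots, and its values lay within 0.0705 of those computed here. The study's methods start from raw median signals, use limma with Benjamini-Hochberg adjustment, and give no background correction or normalization.

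Here the median intensities were corrected by normexp (offset 50). Control spots were then left out, the arrays quantile normalized and log2 transformed, spots with outlier marks set aside, and the spots of each probe averaged. Soy was compared with control over 56605 probes by lmFit and eBayes of limma 3.58.1 (R 4.3.3), with Benjamini-Hochberg adjustment over all of them, and intervals are the moderated 95% intervals of this fit. Tables and plots were made with Python 3.11.15, pandas 2.3.3, scipy 1.17.1 and matplotlib 3.10.9. The fit was tested on simulated data. The array files carry accessions and no symbols, so membership was read from a RefSeq table (GRCm38.p6), which named 32994 probes (58.3%). The array annotation uses a different build, and no probe position is given. Cox5b, a member by name, was not matched and was not analysed here.

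The rule for named genes takes those that pass, the 3 largest changes of each complex among genes measured well above background by 3 of 3 arrays in either group, nuclear core subunits, isoform families, and the 2 largest changes of each list. Ndufaf5, Ndufs5, Ndufs6, Atp5d, Cox7b2, Cox7c, Atp5l, Atp5k, Ppargc1a, Nrip1, Esrra, Nrf1, Gabpa, Tfam, Cps1 and Tat lie outside the rule and were named after their values were seen. A gene that the rule names is not reported here by name. The members and lists were chosen with earlier results of these data known, and so support nothing on their own.

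Alternatives concerned the background (none, or an offset of 16), the signal (processed, scaled to the 75th percentile), the normalization (a 75th-percentile shift or cyclic loess), dim probes, outlier spots, the eBayes settings, averaging over a gene's probes, blocks for replicate number or slide, the deposited log2 values, the call rule, and the omission of single arrays.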

Additional observations from a re-analysis of the deposited data

How the results depend on the processing

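The count of members past the threshold was 0 in each alternative except the processed signal, where 3 passed: Cox7b2 (-1.35) and Cox8b (-0.60) as lower and Cox8c (1.18) as higher. Cox8b and Cox8c were well above background on no array and Cox7b2 on 2, and with this signal 23.2% of all probes passed, against 0.350% in the values reported. The processed signal and the 75th-percentile shift moved the median of all probes to 0.13. Other shares of all probes passing were 0.136% with the offset of 16, 0.528% with the 75th-percentile shift, 1.54% among probes well above background, 0.0442% with slide as a block, and 0.0442% to 0.359% with 1 array left out (lowest without soy 2, highest without control 3).

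Members without overlap numbered 7 higher and 2 lower. They were 4 and 4 with the processed signal, 3 higher with the 75th-percentile shift, and 1 lower among probes well above background, where Cox7b2 was not tested. With 1 array left out they were 9 to 15 higher and 2 to 8 lower, since fewer arrays separate more easily. The share of all probes without overlap in these alternatives is not given here. The counts therefore cannot be read as above or below a background. The median of complex V was -0.030 with the 75th-percentile shift. With 1 array left out the medians ranged from -0.012 to 0.053 for complex I (lowest without control 3), -0.10 to -0.014 for the assembly factors, -0.0083 to 0.089 for complex III (lowest without soy 1), 0.019 to 0.11 for complex IV and -3.0e-05 to 0.069 for complex V (lowest without control 3).

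With the replicate number as a block (replicate block), 0 members and 0.138% of probes passed. Samples of the same number did not deviate together in every pair (correlations 0.103, -0.055 and 0.102 over 32338 probes), and 4 of 6 samples correlated best with their own number. The samples of numbers 1 and 3 also share a slide and those of number 2 do not, so number and slide cannot be told apart in these correlations. Membership by the array's own symbols could not be run, since the arrays carry none.

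Signs turned in 64 of 1078 values of single genes, in 20 genes. Without background correction Cox8c was at 0.042. With the processed signal Atp5c1 was at -0.013, Cox6a1 at 0.062, Cox7a2 at -0.017, Cox8a at -0.0049, Ndufs3 at -0.039 and Ndufv2 at -0.022. With the 75th-percentile shift Atp5b was at -0.030, Atp5c1 at -0.060, Cox6a1 at 0.048, Cox7a2 at -0.041, Cox8a at -0.0085, Cox8b at 0.032, Cox8c at 0.18, Ndufa4l2 at 0.00092, Ndufs3 at -0.029 and Ndufv2 at -0.013. With cyclic loess Atp5c1 was at -0.031, Cox6a1 at 0.085, Cox7a2 at -0.012 and Ndufs3 at -0.0032. With the mean of a gene's probes Atp5a1 was at 0.0020. With slide as a block Atp5a1 was at 0.062, Atp5g3 at 0.043, Cox6a1 at 0.11, Ndufs1 at 0.059 and Ndufs8 at 0.036. With 1 array left out the ranges were -0.042 to 0.14 for Atp5c1, -0.096 to 0.084 for Cox6a1, -0.028 to 0.11 for Cox7a2, -0.057 to 0.041 for Cox8c, -0.11 to 0.027 for Ndufs1, -0.10 to 0.013 for Ndufs8, -0.066 to 0.069 for Atp5a1, -0.092 to 0.060 for Atp5g3, -0.066 to 0.18 for Cox6a2, -0.23 to 0.039 for Ndufaf8, -0.095 to 0.12 for Ndufs3, -0.029 to 0.28 for Acad9, -0.11 to 0.0016 for Cox4i2, -0.0083 to 0.092 for Cox6b1, -0.016 to 0.14 for Ndufa4, -0.098 to 0.083 for Ndufv2, -0.0036 to 0.15 for Cox8a, -0.051 to 0.11 for Atp5b and -0.14 to 0.00078 for Ndufa4l2. The cause of these turns was not tested. With 1 array left out other log2 changes kept their sign but moved by over 1.5 times, to 0.11 to 0.28 for Cox6c, 0.12 to 0.25 for Uqcrq, -0.30 to -0.083 for Ndufa7, -0.32 to -0.12 for Cox8b, 0.27 to 0.50 for Cox19, 0.13 to 0.46 for Coa7, -0.28 to -0.082 for Atpaf1, 0.11 to 0.35 for Cs and -0.34 to -0.13 for Mrps31. Such ranges were also 0.028 to 0.26 for Ndufv1, -0.16 to -0.018 for Ndufs7 and 0.019 to 0.14 for Uqcrc1. They were 0.00095 to 0.097 for Uqcrfs1, 0.035 to 0.13 for Uqcrh, 0.030 to 0.22 for Cox7a2l and 0.053 to 0.14 for Cox4i1. Others were 0.062 to 0.16 for Cox5a, 0.037 to 0.15 for Cox6b2, 0.018 to 0.11 for Atp5g1 and -0.19 to -0.045 for Atp5g2. Further ones were 0.029 to 0.14 for Atp5h, 0.031 to 0.15 for Atp5mpl, 0.043 to 0.17 for Atpif1 and -0.19 to -0.069 for Uqcc1.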

Other observations

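The mitochondrial ribosome, which makes the proteins encoded in mitochondrial DNA, was measured by 78 genes, all well above background on all 6 arrays. Their median log2 change was -0.013, with 37 higher and 41 lower, and none passed the threshold. The 95% interval lay wholly between the thresholds for all 78. The widest were Mrps31 at -0.25 (SE 0.13, adjusted p = 0.524) and Mrps27 at 0.25 (SE 0.096, adjusted p = 0.379), each without overlap between the groups. Control 3 was the lowest array for 24 of the 78 (30.8%).

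The 13 enzymes of the tricarboxylic acid cycle had a median of -0.047, with 5 higher and 8 lower. Fh1, which hydrates fumarate to malate, was at 15.60, 15.64 and 15.49 in control and at 14.89, 15.05 and 14.79 in soy livers, for a change of -0.67 (SE 0.11, adjusted p = 0.0597, and 0.0182 to 0.202 over the alternatives). Its groups were separate, and it passed with the processed signal, among probes well above background and with the trend and robust settings. Of all probes 23.2% passed with the processed signal. Cs, which forms citrate, had a change of 0.25 (SE 0.14, adjusted p = 0.571).

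The 2 probes of Cox7c, a small complex IV subunit, gave different changes, 0.015 for the brighter and -0.26 for the dimmer. Of 18 members with several probes, 13 had probes of the same sign.

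Among markers of other cells in the liver, none of the endothelial (4), stellate (4), cholangiocyte (4) or red cell (8) genes passed. The red cell genes had a summed linear signal of 374368, 275544 and 414124 in control and 297638, 690074 and 370212 in soy livers, with the highest signals from the probes of the near-identical genes Hba-a1 and Hba-a2.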
